A study of Homo sapiens with 12 samples.

Results

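The genes of glycolysis and of the cell's response to low oxygen were followed as a set of 36 named members in RNA-seq data from the established cell line SNU638, derived from a human gastric cancer. The set is a list of gene names: the enzymes from hexokinase to pyruvate kinase, the lactate dehydrogenases and lactate carriers, the enzymes that regulate phosphofructokinase and pyruvate dehydrogenase, the oxygen-sensing proteins, and well-known targets of the hypoxia-inducible factors. All 36 were listed among the 17303 genes of the deposited table. Of these, 35 were among the 12868 genes with enough counts to be tested, and BNIP3, a receptor for the removal of mitochondria, was not.

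Glycolysis splits glucose into pyruvate in the cytosol, and many tumour cells turn much of that pyruvate into lactate even when oxygen is present. The hypoxia-inducible factors are transcription factors whose alpha subunits, HIF1A among them, are made all the time and are hydroxylated by the prolyl hydroxylases EGLN1 and EGLN3 when oxygen is available, which marks them for degradation. When oxygen falls the alpha subunit accumulates, pairs with ARNT and binds hypoxia response elements near the genes of glycolysis, of lactate export and of blood vessel growth, and EGLN3 is itself among its targets.

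The study asked which genes SKA2 regulates in gastric cancer cells. SNU638 cells were infected with lentivirus, and stably expressing lines resistant to puromycin were selected. Of the 4 lines, the control carries a control hairpin and has the genotype label wt, and the others carry SKA2 hairpin 1, hairpin 2 or hairpin 3 and have the genotype label SKA2 knockdown. Each line gave 3 libraries, 12 in all. All lines, the control included, went through infection and selection, and no uninfected cells and no low-oxygen culture were part of the comparison. Each hairpin is represented by 1 line, so an effect of a hairpin and a trait of its line cannot be told apart. Whether the 3 libraries of each line were grown as separate cultures is not in the labels. The p-values therefore reflect only how far these libraries spread, and that spread may be technical.

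The libraries held between 14693343 and 16739155 counts. The first libraries of the control and of hairpin 3 stood apart from the others of their lines. Their chi-square per degree of freedom against the other 2 libraries lay between 24.5 and 50.4, while every other pair within a line lay between 1.68 and 6.55. They differed in how counts depended on transcript length: the slope of log2 level per doubling of length was -0.06 in the first control library against -0.24 and -0.32 in the others, and 0.09 in the first hairpin 3 library against -0.12 and -0.17. The slopes were 0.08 to 0.11 with hairpin 1 and 0.15 to 0.20 with hairpin 2. Markers of other cell types were low or near 0. PTPRC and CD3E stayed at or below 0.11 TPM, and the 4 endothelial markers summed to 0.02 to 0.18 TPM. Nearly all of the leukocyte sum of 14.6 to 30.8 TPM was CD68. The 5 fibroblast markers in the table summed to 1.18 to 2.92 TPM. Of these only COL1A1 was tested, with log2 fold changes against the control of -0.60, -0.10 and -0.77 with hairpins 1, 2 and 3. EPCAM, a surface protein of epithelial cells, was present in every library.

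SKA2, the targeted gene and a subunit of a kinetochore complex, held 126, 119 and 117 CPM in the control libraries. CPM are edgeR's counts per library size, with TMM factors applied. It held 26.0, 22.3 and 23.7 CPM in the hairpin 1 line, 23.3, 25.3 and 27.2 CPM in the hairpin 2 line, and 24.9, 26.9 and 28.0 CPM in the hairpin 3 line. No knockdown library overlapped the control, and the log2 fold changes were -2.33, -2.25 and -2.18.

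The promoters of some members carry the core of the hypoxia response element, and they are shown first because the members described below differ widely in how many they carry. The 250 bases before the transcription start were taken from RefSeq (GRCh38.p14) for the 31 members that matched, which leaves SLC16A1, PFKFB2, BNIP3L, VEGFA and NDRG1 without a printed promoter. Each was searched on both strands for the core, spelled ACGTG or, in its other form, with G as the initial letter, GCGTG. Where a C stands before the first form, the letters read as the core on both strands and count as 2 matches at 1 place. A core was found in 21 of the 31 promoters (67.7%), against 43.2% of all 35116 promoters of the same length and 57.6% of the 10540 promoters of tested genes. The form ACGTG alone was in 14 of 31 (45.2%), against 18.5% and 23.4%. These are matches of letters and not binding sites. Bases of a match are in capitals, and each sequence runs 5′ to 3′ toward the start of its gene. P4HA1 (chr10:73096867-73097116, minus strand) has 1 match, 86 bases before the start, and EGLN3 (chr14:33951075-33951324, minus strand) has none in this window. LDHA (chr11:18394313-18394562, plus strand) has 5 matches at 3 places, ALDOC (chr17:28576896-28577145, minus strand) has 5 at 4 places, GAPDH (chr12:6535014-6535263, plus strand) has 2 at 1 place, and BNIP3 (chr10:131981924-131982173, minus strand) has 6 at 5 places.
P4HA1: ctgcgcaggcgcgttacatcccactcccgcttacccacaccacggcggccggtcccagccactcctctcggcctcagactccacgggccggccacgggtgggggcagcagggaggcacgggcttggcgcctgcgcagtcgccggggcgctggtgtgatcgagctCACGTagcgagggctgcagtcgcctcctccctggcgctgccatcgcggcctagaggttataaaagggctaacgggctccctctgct
EGLN3: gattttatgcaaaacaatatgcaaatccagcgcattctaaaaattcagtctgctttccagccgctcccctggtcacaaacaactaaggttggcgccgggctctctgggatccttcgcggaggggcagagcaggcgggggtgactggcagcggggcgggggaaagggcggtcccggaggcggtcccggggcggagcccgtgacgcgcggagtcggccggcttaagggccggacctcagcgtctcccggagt
LDHA: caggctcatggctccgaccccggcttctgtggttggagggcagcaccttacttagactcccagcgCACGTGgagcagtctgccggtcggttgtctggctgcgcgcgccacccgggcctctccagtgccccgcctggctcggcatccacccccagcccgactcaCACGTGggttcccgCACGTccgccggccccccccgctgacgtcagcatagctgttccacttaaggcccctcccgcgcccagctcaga
ALDOC: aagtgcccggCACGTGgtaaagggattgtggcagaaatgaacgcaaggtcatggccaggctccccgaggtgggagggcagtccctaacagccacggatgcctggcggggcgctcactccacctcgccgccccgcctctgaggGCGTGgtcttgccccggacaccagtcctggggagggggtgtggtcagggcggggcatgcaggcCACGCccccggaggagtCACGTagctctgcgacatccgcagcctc
GAPDH: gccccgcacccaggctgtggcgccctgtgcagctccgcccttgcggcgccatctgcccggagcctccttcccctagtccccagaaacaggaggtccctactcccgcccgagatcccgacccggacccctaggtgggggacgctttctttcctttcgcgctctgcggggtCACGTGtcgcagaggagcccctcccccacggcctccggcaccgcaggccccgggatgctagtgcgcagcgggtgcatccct
BNIP3: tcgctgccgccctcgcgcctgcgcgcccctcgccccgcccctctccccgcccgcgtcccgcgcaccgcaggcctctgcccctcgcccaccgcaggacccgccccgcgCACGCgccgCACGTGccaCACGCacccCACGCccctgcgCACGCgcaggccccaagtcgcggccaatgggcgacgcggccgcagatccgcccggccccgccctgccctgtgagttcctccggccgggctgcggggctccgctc

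Of the 3 hairpin lines, hairpin 2 had the most members below the control. With hairpin 1, 14 of the 35 tested members rose (40%) and 12 fell (34.3%), while 31.5% of all tested genes rose and 31.5% fell. With hairpin 2, 9 rose (25.7%) and 20 fell (57.1%), against 36.6% and 37.8% of all tested genes. With hairpin 3, 10 rose (28.6%) and 14 fell (40%), against 23.6% and 24% of all tested genes. Rose, fell and called mean an adjusted p below 0.05 in the quasi-likelihood test of edgeR, adjusted over all tested genes by the Benjamini-Hochberg method. The members' median log2 fold change was 0.03 with hairpin 1, -0.51 with hairpin 2 and -0.13 with hairpin 3, where the medians of all tested genes were 0.01, -0.02 and 0.01. Of the 15 enzymes from hexokinase to pyruvate kinase, 8 fell and 2 rose with hairpin 1, 12 fell with hairpin 2, and 10 fell and 2 rose with hairpin 3. On the scale of the deposited TPM this turned for hairpin 1, with 4 of the 15 lower and 6 higher, while 7 were lower and 3 higher with hairpin 2 and 7 lower and 2 higher with hairpin 3. The 3 comparisons share the control libraries. In bulk RNA, fewer cells of a kind and less RNA per cell cannot be told apart.

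These counts depend on scaling and on the libraries in the fit. On the deposited TPM scale, the median of all tested genes lay at 0.29, 0.33 and 0.12 with hairpins 1, 2 and 3, and 78.9%, 71.7% and 60.9% of the called genes were higher, against 50%, 49.2% and 49.6% with TMM scaling. The members' counts on that scale were 22 higher (62.9%) and 7 lower (20%) with hairpin 1, against 50.2% and 13.5% of all tested genes. They were 13 (37.1%) and 12 (34.3%) with hairpin 2, against 53% and 20.9%, and 10 (28.6%) and 10 (28.6%) with hairpin 3, against 25% and 16.1%. Calls that kept their direction but did not pass there were those of HK1 and PKM with hairpin 1 and of GPI, ALDOA, ENO2, PFKFB4 and ANKRD37 with hairpin 2. With hairpin 3 they were those of HK2, GPI, PFKM, PDK3 and BNIP3L. Other lower calls were lost because the direction turned, those of GPI, PFKL and ADM with hairpin 1 and of PGK1, PGAM1 and SLC16A1 with hairpin 2.

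With both first libraries of the control and hairpin 3 left out, 16 members rose (45.7%) and 14 fell (40%) with hairpin 1, against 37.9% and 37.8% of all tested genes. In that fit 11 rose (31.4%) and 22 fell (62.9%) with hairpin 2, against 40.9% and 41.3%, and 12 rose (34.3%) and 16 fell (45.7%) with hairpin 3, against 30.9% and 29%. Fitting only the 6 libraries of hairpin 3 and the control gave 6 higher (17.1%) and 5 lower (14.3%), against 12.2% and 14.4% of all tested genes, and 13 calls were lost, those of HK2, GPI, PFKL, PFKM, ALDOA, ALDOC, GAPDH, PGAM1, ENO1, PKM, LDHA, LDHB and ADM. The same 6 libraries with the replicate number as a block gave 13 higher (37.1%) and 17 lower (48.6%), against 35% and 34.7%. This pairing by number and the fit without both first libraries were chosen after seeing the data. Values below that pass only in these fits therefore do not count as calls.

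**Figure D1:**
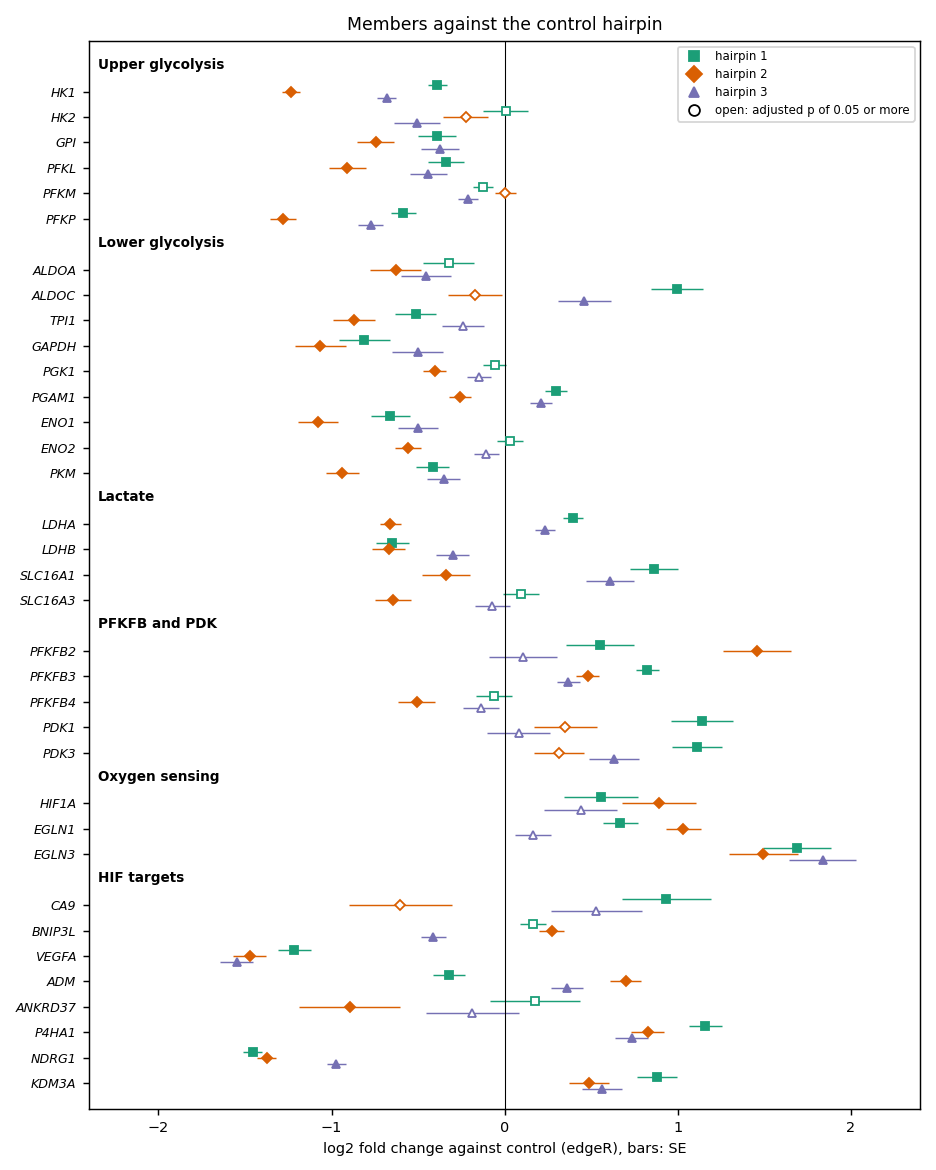
Log2 fold change of the 35 tested members against the control (x axis) with hairpins 1, 2 and 3, grouped by role, with bars of 1 SE from edgeR's fit; filled symbols passed the adjusted p of 0.05 and open symbols did not. The upper glycolysis symbols lie at or left of 0.01 with this TMM scaling, where GPI, PFKL and PFKM with hairpin 1 turned to 0.20, 0.05 and 0.25 on the TPM scale, the oxygen-sensing symbols lie right of 0, and VEGFA and NDRG1 lie near or left of -1 with each hairpin.

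The genes of upper glycolysis trap glucose in the cell and commit it to breakdown. Of these 6 genes, 4 fell with hairpin 1 (66.7%, against 31.5% of all tested genes). With hairpin 2, 4 fell (66.7%, against 37.8%), and with hairpin 3, 6 fell (100%, against 24%). The median log2 fold changes were -0.36, -0.83 and -0.47, though with hairpin 1 GPI, PFKL and PFKM turned to 0.20, 0.05 and 0.25 on the TPM scale. HK1, the hexokinase of most tissues, held 204, 203 and 207 CPM in the control. It was 157, 152 and 159 CPM in the hairpin 1 line, 87.5, 89.8 and 83.8 CPM in the hairpin 2 line, and 126, 129 and 128 CPM in the hairpin 3 line. The libraries of the 4 lines formed 4 ranges that did not overlap, with the control highest and hairpin 2 lowest. The log2 fold changes were -0.39 ± 0.05 (SE; adjusted p = 0.00013), -1.23 ± 0.05 (6.0e-09) and -0.68 ± 0.05 (2.0e-06). On the deposited TPM scale HK1 was 88.6 ± 10.8 (SD, n = 3) in the control and 87.7 ± 1.08 with hairpin 1, a difference of -0.01 on the log2(TPM + 1) scale that did not pass limma's test.

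PFKP, the platelet form of phosphofructokinase, the enzyme of the committed step, held 159.8, 166 and 182 CPM in the control. It was 108, 116 and 115 CPM in the hairpin 1 line, 73.5, 67.9 and 67.5 CPM in the hairpin 2 line, and 95.2, 96.7 and 105 CPM in the hairpin 3 line. Every knockdown library lay below every control library, with log2 fold changes of -0.59 ± 0.07, -1.28 ± 0.07 and -0.77 ± 0.07. PFKL, the liver form, held 147, 172 and 196 CPM in the control and 135, 132 and 141 CPM in the hairpin 1 line. It was 92.3, 94.5 and 87.7 CPM in the hairpin 2 line, and 111, 130.1 and 138 CPM in the hairpin 3 line. Its changes were -0.34 ± 0.10, -0.91 ± 0.11 and -0.44 ± 0.10, and none of the 3 ranges reached the control. The hairpin 1 change of PFKL did not pass without control library 3 (-0.23, adjusted p = 0.0699). PFKM, the muscle form, was 154 ± 4.61 CPM (SD, n = 3) in the control and 155 ± 6.45 CPM in the hairpin 2 line, where its log2 fold change was 0.00 ± 0.06.

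GPI, which turns glucose phosphate into fructose phosphate, fell with each hairpin, by 0.39, 0.74 and 0.37 on the log2 scale. None of these held on the TPM scale, where hairpin 1 was called higher (0.20) and hairpins 2 (-0.11, adjusted p = 0.0892) and 3 (-0.09, 0.217) did not pass limma's test. Its hairpin 3 change did not pass without control library 3 (-0.27) or without the first hairpin 3 library (-0.28). HK2, the hexokinase often raised in tumours, was 85.3 ± 15.5 CPM in the control and fell by 0.51 ± 0.13 with hairpin 3. With hairpins 1 and 2 its changes were 0.01 and -0.23 and its libraries overlapped the control, and with an offset that removes the trend over transcript length they were -0.36 (adjusted p = 0.000182) and -0.69 (1.9e-07).

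The lower stretch of the pathway runs from the aldolases to pyruvate kinase and yields ATP and NADH. In the control GAPDH had the highest level of all members, at 5637 ± 362 TPM (SD, n = 3), followed by ENO1 at 2708 ± 110 TPM and PKM at 2084 ± 29.5 TPM, while ENO2 and ALDOC of the same stretch were at 75.5 ± 5.69 and 17.1 ± 2.25 TPM. With hairpin 2, 8 of the 9 fell (88.9%, against 37.8% of all tested genes), of which PGK1 and PGAM1 turned to 0.04 and 0.18 on the TPM scale. With hairpin 1, 4 fell (44.4%) and 2 rose (22.2%), against 31.5% and 31.5% of all tested genes. With hairpin 3 the counts were again 4 and 2, against 24% and 23.6%. GAPDH, which makes the first NADH of the pathway, held 3234, 4103 and 4680 CPM in the control and 2346, 2228 and 2273 CPM in the hairpin 1 line. It was 1985, 1936 and 1819 CPM in the hairpin 2 line, and 2210, 2995 and 3278 CPM in the hairpin 3 line. The hairpin 1 and 2 libraries all lay below the control, while the upper hairpin 3 library reached past the lowest control library. Log2 fold changes were -0.81 ± 0.15 (adjusted p = 0.000766), -1.07 ± 0.15 (4.6e-05) and -0.50 ± 0.15 (0.0149), and the last did not pass without control library 3 (-0.38, adjusted p = 0.0647). With the length offset the changes were -0.40, -0.50 and -0.31.

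ENO1, the common form of enolase, held 2409, 2897 and 3306 CPM in the control. It was 1817, 1799 and 1836 CPM in the hairpin 1 line, 1403, 1337 and 1343 CPM in the hairpin 2 line, and 1724, 2125 and 2233 CPM in the hairpin 3 line. No knockdown library reached the control range, and the changes were -0.66 ± 0.11, -1.08 ± 0.12 and -0.50 ± 0.11. With the length offset they were -0.36, -0.65 and -0.34. PKM, whose M1 and M2 splice forms the table does not separate, fell by 0.42, 0.94 and 0.35 on the log2 scale, and the hairpin 1 value was -0.03 on the TPM scale. TPI1, the triose phosphate isomerase, fell by 0.52 and 0.87 with hairpins 1 and 2. Its change of -0.24 ± 0.12 with hairpin 3 did not pass in the 12-library fit, and passed when control and hairpin 3 libraries were paired by number (-0.24, adjusted p = 6.5e-08) or control library 1 was left out (-0.36, 0.00983).

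ALDOC, the brain form of aldolase, moved the other way with hairpins 1 and 3. It held 11.9, 17.2 and 19.7 CPM in the control and 33.5, 31.3 and 32.5 CPM in the hairpin 1 line, all above the control. It was 15.2, 15.1 and 13.1 CPM in the hairpin 2 line, within the control range, and 19.7, 23.6 and 23.8 CPM in the hairpin 3 line. The log2 fold changes were 1.00 ± 0.15 (adjusted p = 0.000254), -0.17 ± 0.16 (0.342) and 0.46 ± 0.15 (0.0266). The hairpin 3 call was lost without its library 2 (0.42) or library 3 (0.41). The hairpin 2 value was 0.32 with the length offset (adjusted p = 0.0115), 0.28 on the TPM scale, and -0.35 without control library 1 (0.0128). PGAM1, a phosphoglycerate mutase, rose by 0.30 with hairpin 1 and by 0.21 with hairpin 3 and fell by 0.26 with hairpin 2. The hairpin 2 direction turned to 0.16 with the length offset, and the hairpin 3 call was lost without control library 2 (0.21) or without its own library 2 (0.19) or library 3 (0.17).

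The remaining members of this stretch were ALDOA, PGK1 and ENO2. ALDOA, the main aldolase of most cells, fell by 0.63 with hairpin 2 and by 0.45 with hairpin 3, and was at -0.32 ± 0.15 with hairpin 1, which passed without control library 1 (-0.47) or hairpin 3 library 1 (-0.34). Its hairpin 3 call was lost without control library 2 (-0.43), control library 3 (-0.32) or the first hairpin 3 library (-0.32), and its hairpin 2 value was -0.11 with the length offset. PGK1, the first ATP-yielding enzyme, fell by 0.41 with hairpin 2 and was at -0.06 and -0.15 with hairpins 1 and 3, and ENO2, the neuronal enolase, fell by 0.56 with hairpin 2 (-0.12 on the TPM scale, where it did not pass) and was at 0.03 and -0.11. With the length offset PGK1 (-0.36, adjusted p = 0.0128) and ENO2 (0.20, 0.00328) passed with hairpin 1. On the TPM scale PGK1 went the other way with hairpin 1, from a mean of 192 TPM in the control to 241 TPM. Paired by number, the hairpin 3 values of PGK1 (-0.15, adjusted p = 0.000395) and ENO2 (-0.11, 0.0377) passed, and PGK1 also passed without control library 1 (-0.21). GAPDH has 62 named pseudogenes in GENCODE v29, BNIP3 has 39, PGAM1 has 13 and LDHA has 6, and 15 members have at least 1. RSEM, named in the submitters' processing notes, splits reads that fit several copies into counts that need not be whole. The deposited counts of GAPDH, LDHA and BNIP3 were whole numbers in 12 of 12 libraries, those of PFKFB4 in 11 and those of PGK1 in 7. Whole counts alone do not show that no reads came from pseudogenes, as whether the submitters' reference held those pseudogenes was not tested. Counts of PGAM1, ALDOA, PFKM, SLC16A3 and ANKRD37 were whole in 1 library each and those of GPI in 0, so their levels are uncertain. With reads that carry no strand, 14 members also share exon bases with a gene on the opposite strand, among them ENO1, TPI1, HIF1A, VEGFA and P4HA1.

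The 4 lactate genes did not move together. With hairpin 2 all 4 fell (100%, against 37.8% of all tested genes), though SLC16A1 turned to 0.11 on the TPM scale. With hairpins 1 and 3 LDHA and SLC16A1 rose (50%, against 31.5% and 23.6%) while LDHB fell (25%, against 31.5% and 24%). LDHA, the subunit that favours turning pyruvate into lactate, held 1300, 1370 and 1392 CPM in the control. It was 1761, 1766 and 1811 CPM in the hairpin 1 line, 901, 845 and 826 CPM in the hairpin 2 line, and 1543, 1598 and 1625 CPM in the hairpin 3 line. The ranges of the 4 lines did not overlap, with hairpin 1 highest and hairpin 2 lowest. Log2 fold changes were 0.39 ± 0.06 (adjusted p = 0.000216), -0.66 ± 0.06 (1.4e-06) and 0.23 ± 0.06 (0.00714).

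SLC16A1, the lactate carrier MCT1, held 187, 142 and 124 CPM in the control. It was 271, 272 and 280 CPM in the hairpin 1 line and 269, 217 and 205 CPM in the hairpin 3 line, all above the control. With hairpin 2 it was 111, 124 and 123 CPM, and its upper library reached the lowest control library. The changes were 0.86 ± 0.14 (adjusted p = 0.000393), -0.34 ± 0.14 (0.0439) and 0.61 ± 0.14 (0.00416). The hairpin 2 call was lost in 9 of the 12 fits that leave out 1 library, with values from -0.38 to -0.15, the smallest without control library 1. LDHB, the subunit that favours the return of lactate to pyruvate, held 1058, 1278 and 1334 CPM in the control. It was 752, 771 and 818 CPM in the hairpin 1 line, 819, 750.4 and 738 CPM in the hairpin 2 line, and 894, 1005 and 1081 CPM in the hairpin 3 line, which alone overlapped the control. LDHB fell by 0.65 ± 0.10, 0.67 ± 0.10 and 0.30 ± 0.10, and with the length offset the values were -0.25, -0.11 and -0.10. Its hairpin 3 call was lost without control library 2 (-0.27), control library 3 (-0.23) or the first hairpin 3 library (-0.23). SLC16A3, the carrier MCT4 known for lactate export, fell by 0.65 ± 0.10 with hairpin 2 and was at 0.09 and -0.07 with hairpins 1 and 3.

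The enzymes that set the flow into and out of glycolysis were higher with hairpin 1. The PFKFB enzymes make and break the fructose bisphosphate that activates phosphofructokinase. The PDK kinases switch off pyruvate dehydrogenase and so hold back the use of pyruvate within the mitochondria. Of these 5 genes, 4 rose with hairpin 1 (80%, against 31.5% of all tested genes), 2 rose and 1 fell with hairpin 2 (40% higher, against 36.6%), and 2 rose with hairpin 3 (40%, against 23.6%). PFKFB2 held 39.7, 27.9 and 23.7 CPM in the control and 44.6, 43.8 and 45.3 CPM in the hairpin 1 line. It was 84.2, 82.0 and 84.5 CPM in the hairpin 2 line, and 43.5, 29.1 and 25.6 CPM in the hairpin 3 line. The hairpin 2 libraries were all at more than 80 CPM, above every other library, while the hairpin 3 libraries overlapped the control, and in both lines the first library was the highest. The changes were 0.55 ± 0.20 (adjusted p = 0.0283), 1.46 ± 0.20 (3.8e-05) and 0.10 ± 0.20 (0.687). The hairpin 1 call of PFKFB2 was lost with the length offset (0.11) and in 5 fits that leave out 1 library (0.40 to 0.55).

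PDK1 held 32.5, 24.4 and 22.6 CPM in the control and 57.2, 60.5 and 57.4 CPM in the hairpin 1 line. It was 33.8, 33.8 and 33.6 CPM in the hairpin 2 line, just above the highest control library, and 37.9, 22.8 and 23.4 CPM in the hairpin 3 line, across the control range. It rose with hairpin 1 by 1.14 ± 0.18 (adjusted p = 0.000335), and the changes of 0.35 ± 0.18 and 0.08 ± 0.18 with hairpins 2 and 3 did not pass. The hairpin 2 value of PDK1 passed without control library 1 (0.52, adjusted p = 0.0195) or hairpin 3 library 1 (0.35, 0.01). PDK3 held 24.5, 18.8 and 18.8 CPM in the control, 45.3, 47.2 and 41.6 CPM in the hairpin 1 line, and 38.4, 28.7 and 29.1 CPM in the hairpin 3 line, with no overlap. With hairpin 2 it was 22.3, 28.4 and 26.4 CPM. PDK3 rose by 1.11 ± 0.14 and 0.63 ± 0.14 with hairpins 1 and 3 and was at 0.31 ± 0.14 with hairpin 2, a value that turned to -0.54 with the length offset (adjusted p = 8.0e-05) and passed without control library 1 (0.45), hairpin 2 library 1 (0.41) or hairpin 3 library 1 (0.31). PDK3 has the longest transcript of the set, at 9050 bp.

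PFKFB3, the form with the strongest kinase activity, rose with each hairpin, by 0.82 ± 0.07, 0.48 ± 0.07 and 0.37 ± 0.07. PFKFB4 fell with hairpin 2 by 0.51 ± 0.11, a call lost on the TPM scale (-0.05, adjusted p = 0.598 in limma's test), and its changes with hairpins 1 and 3 were -0.06 and -0.13.

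The oxygen-sensing genes were higher: of 3, all rose with hairpins 1 and 2 (100%, against 31.5% and 36.6% of all tested genes). With hairpin 3, EGLN3 rose (33.3%, against 23.6%). EGLN3, the oxygen-dependent prolyl hydroxylase best known as a hypoxia target itself, had the largest positive change of the set with each hairpin. It was low in every line, at 1.01, 1.23 and 1.08 CPM in the control. It was 3.53, 3.31 and 3.93 CPM in the hairpin 1 line, 2.89, 3.60 and 2.90 CPM in the hairpin 2 line, and 3.25, 4.75 and 3.92 CPM in the hairpin 3 line. No knockdown library came near the control, and the log2 fold changes were 1.69 ± 0.20 (adjusted p = 4.1e-05), 1.49 ± 0.20 (3.5e-05) and 1.84 ± 0.19 (2.0e-05). Its promoter window printed above has no core.

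EGLN1, the main prolyl hydroxylase of most cells, held 49.9, 38.5 and 39.5 CPM in the control, 68.1, 69.8 and 65.4 CPM in the hairpin 1 line, and 83.8, 86.8 and 91.1 CPM in the hairpin 2 line. With hairpin 3 it was 52.6, 43.7 and 47.0 CPM, which overlapped the control. EGLN1 rose by 0.67 ± 0.10 and 1.03 ± 0.10 with hairpins 1 and 2, and the change of 0.16 ± 0.10 with hairpin 3 did not pass unless libraries were paired by number (0.17, adjusted p = 0.0137) or control library 1 was left out (0.29, 0.0128). HIF1A itself held 123, 83.4 and 61.1 CPM in the control, the widest relative spread of the tested members described here within that line. It was 129, 131 and 133 CPM in the hairpin 1 line, 157, 165 and 173 CPM in the hairpin 2 line, and 154, 108 and 101 CPM in the hairpin 3 line. Hairpins 1 and 2 lay above the control throughout, and in the control and hairpin 3 the first library was the highest. The changes were 0.56 ± 0.21 (adjusted p = 0.038), 0.89 ± 0.21 (0.00243) and 0.44 ± 0.21 (0.107). The hairpin 1 call was lost in 6 of the 12 fits that leave out 1 library, with values from 0.34 without control library 3 to 0.56. The hairpin 3 value passed with pairing by number (0.46, adjusted p = 5.5e-11), without control library 1 (0.74, 0.00321) and without both first libraries (0.54, 0.000106). Pairing by number and leaving out both first libraries were chosen after seeing the data, so these p-values do not replace that of the 12-library fit. HIF1A is regulated chiefly at the protein level, which was not measured.

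The hypoxia-inducible factor targets did not move in 1 direction. Of the 8 tested, 3 rose (37.5%) and 3 fell (37.5%) with hairpin 1, against 31.5% and 31.5% of all tested genes. With hairpin 2, 4 rose (50%) and 3 fell (37.5%), against 36.6% and 37.8%. With hairpin 3, 3 rose (37.5%) and 3 fell (37.5%), against 23.6% and 24%. VEGFA, the growth factor of blood vessels, held 103, 89.1 and 85.9 CPM in the control. It was 38.7, 39.5 and 41.5 CPM in the hairpin 1 line, 33.4, 33.1 and 33.6 CPM in the hairpin 2 line, and 36, 28.5 and 30.5 CPM in the hairpin 3 line. Every knockdown library was below 42 CPM and every control library above 85, and the log2 fold changes were -1.21 ± 0.09 (adjusted p = 1.7e-06), -1.47 ± 0.09 (1.1e-07) and -1.55 ± 0.09 (2.6e-07). NDRG1, a gene strongly induced by low oxygen and other stress, held 229, 232 and 234 CPM in the control. It was 84.5, 85.0 and 84.0 CPM in the hairpin 1 line, 93.4, 88.4 and 86.3 CPM in the hairpin 2 line, and 114, 120.0 and 120.2 CPM in the hairpin 3 line. The groups did not overlap with the control, and NDRG1 fell by 1.46 ± 0.06, 1.37 ± 0.06 and 0.97 ± 0.06.

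P4HA1, the catalytic subunit of the prolyl hydroxylase that matures collagen, moved the other way. It held 34.8, 30.0 and 29.2 CPM in the control, 70.6, 68.5 and 70.6 CPM in the hairpin 1 line, 55.4, 57.2 and 53.8 CPM in the hairpin 2 line, and 58.4, 51.9 and 45.8 CPM in the hairpin 3 line. All 9 knockdown libraries were above the control, and P4HA1 rose by 1.16 ± 0.09 (adjusted p = 2.8e-06), 0.82 ± 0.09 (1.0e-05) and 0.73 ± 0.09 (9.3e-05). KDM3A, a histone demethylase, also rose with each hairpin, by 0.88 ± 0.12, 0.49 ± 0.12 and 0.56 ± 0.12.

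The other targets differed between hairpins. ADM, the vasodilator peptide adrenomedullin, was 37.8 ± 1.19 CPM (SD, n = 3) in the control, fell by 0.32 ± 0.09 with hairpin 1 and rose by 0.70 ± 0.09 and 0.36 ± 0.09 with hairpins 2 and 3. The hairpin 1 direction turned to 0.03 with the length offset and to 0.05 on the TPM scale. CA9, a carbonic anhydrase of the cell surface and a classic hypoxia marker, was 2.24 ± 0.46 CPM in the control and rose by 0.93 ± 0.26 with hairpin 1, and its changes of -0.60 ± 0.30 and 0.53 ± 0.26 with hairpins 2 and 3 did not pass. Without control library 1 (-0.76) or without the first hairpin 2 library (-1.05) the hairpin 2 value of CA9 passed, and the hairpin 3 value passed with pairing by number (0.53, adjusted p = 0.0168). BNIP3L, a mitophagy receptor, rose by 0.27 with hairpin 2, fell by 0.41 with hairpin 3 and was at 0.16 with hairpin 1, which passed without control library 1 (0.22). ANKRD37, an ankyrin repeat protein, was at most 2.47 CPM in any library and fell by 0.89 ± 0.29 with hairpin 2, a call lost without control library 2 (-0.81), control library 3 (-0.71) or hairpin 2 library 3 (-0.69). ANKRD37 has the shortest transcript of the set, at 511 bp. With the length offset its hairpin 2 value was -0.22 (adjusted p = 0.412), and on the TPM scale it was -0.36 (0.0995). Its hairpin 1 value of 0.17 passed with that offset (0.71, adjusted p = 0.00856). BNIP3 held 0 to 8 expected counts per library, at most 0.52 CPM, and was not tested. Its promoter window carries more matches to the core than any other printed here.

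**Figure D2:**
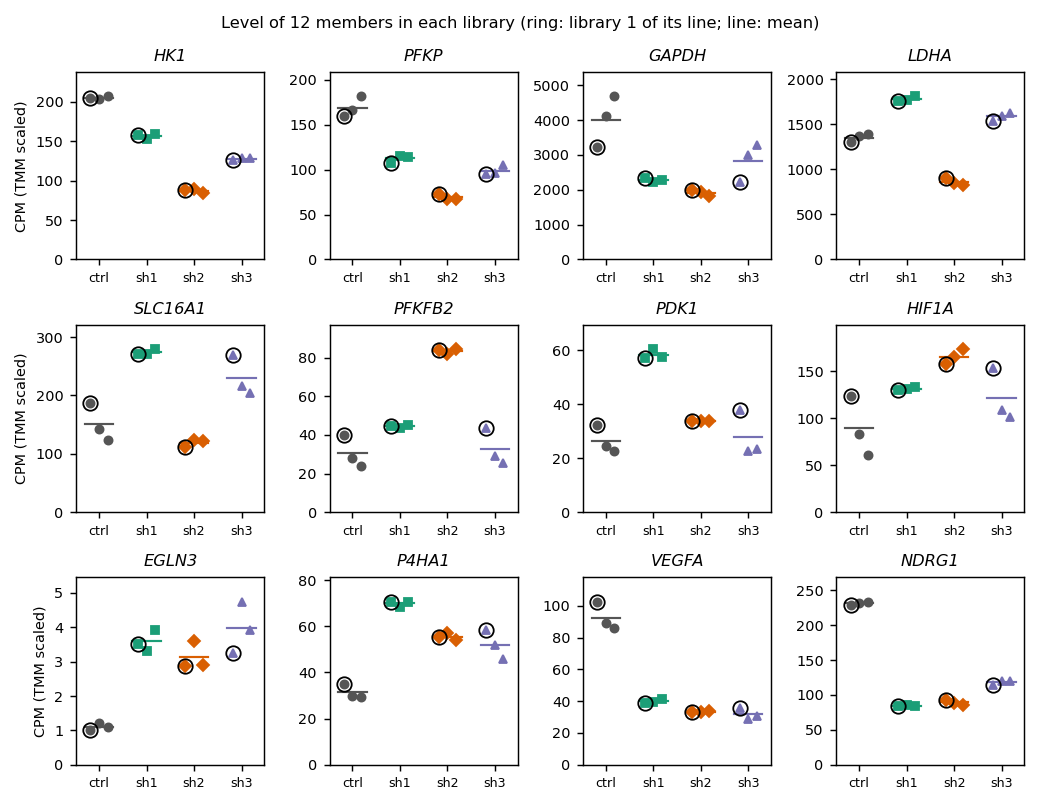
CPM (y axis, from 0) of 12 members in each of the 12 libraries, with the lines on the x axis (ctrl, the control; sh1 to sh3, hairpins 1 to 3), a bar at each mean, and a ring around the first library of each line. The ringed control and hairpin 3 libraries are the lowest of their lines for GAPDH and the highest for SLC16A1, PFKFB2, PDK1 and HIF1A, while HK1, VEGFA, NDRG1 and P4HA1 separate the control from every knockdown library.

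As a share of all transcripts, the sum of the set was smaller in each knockdown line than in the control. The deposited TPM of the 36 members summed to 17205 to 17925 in the control, and to 16604 to 16665, 13239 to 13361 and 14991 to 15744 in the lines of hairpins 1, 2 and 3, and these ranges did not overlap. For 3 libraries against 3, an exact two-sided permutation test cannot give a p below 0.1. The sum is carried by lower glycolysis, at 13038 to 14193 TPM in the control and 9688 to 9753 TPM with hairpin 2. Within it, GAPDH alone held 5637 ± 362 TPM (SD, n = 3) in the control and 4210 ± 79 TPM with hairpin 1. On the log2(TPM + 1) scale, 22 members were called higher (62.9%) and 7 lower (20%) with hairpin 1, against 50.2% and 13.5% of all tested genes. With TMM scaling 14 were higher and 12 lower, against 31.5% and 31.5%. The lower sum with hairpin 1 is thus not a fall of most members on either scale. The lactate genes summed to 2727 to 2949 TPM in the control, and to 3289 to 3434, 2399 to 2496 and 2945 to 3194 TPM in the 3 knockdown lines in order. Upper glycolysis, by contrast, summed to 651 to 738 TPM in the control and 732 to 742 with hairpin 1, which overlapped, and to 579 to 593 and 548 to 618 with hairpins 2 and 3. PFKFB and PDK genes summed to 44.0 to 66.7 TPM in the control, and the lines of hairpins 1, 2 and 3 held 110.0 to 113, 97.2 to 103 and 59.1 to 83.3 TPM. For the oxygen-sensing genes the control held 35 to 76.1 TPM, and the same lines held 101 to 104, 125 to 146 and 60.5 to 101 TPM. In both of these roles the hairpin 3 libraries overlapped the control.

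**Figure D3:**
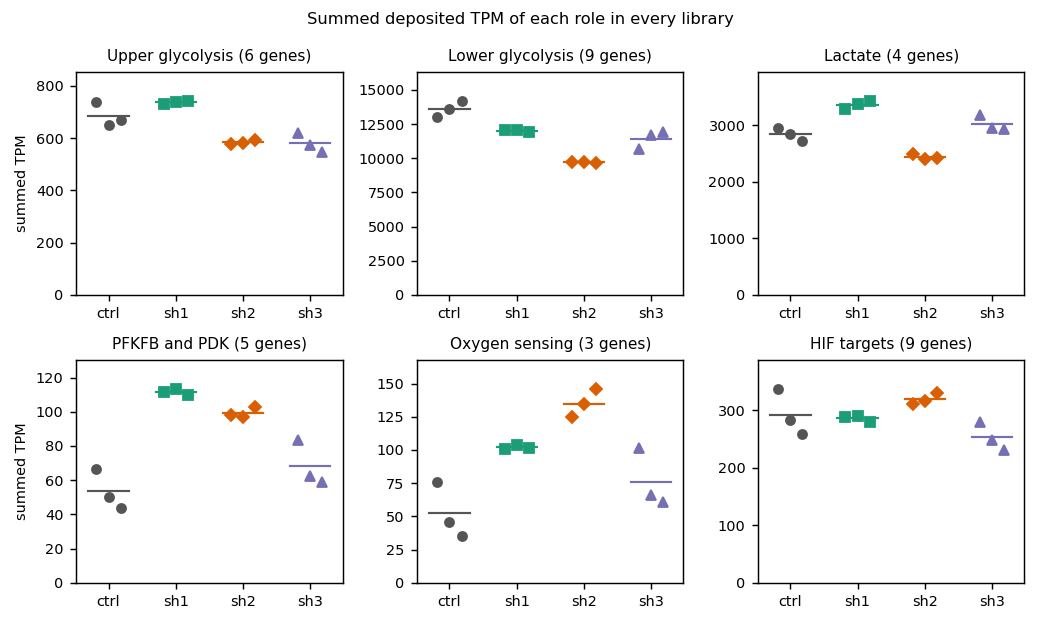
Summed deposited TPM (y axis, from 0) of the members of each role in every library, by line on the x axis, with a bar at each mean. Lower glycolysis runs from 13038 to 14193 in the control and from 9688 to 9753 with hairpin 2, and the oxygen-sensing genes are higher with hairpins 1 and 2 than in any control library.

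The hairpin lines were compared with each other, in the same fit of 12 libraries, to see where they differ. Hairpin 2 was below hairpin 1 for 23 of the 35 tested members (65.7%) and above it for 3 (8.57%), against 29.4% and 28.2% of all tested genes, with a median of -0.36 for the members and -0.01 for all genes. Hairpin 3 was above hairpin 2 for 19 members (54.3%) and below it for 5 (14.3%), against 33.4% and 31.9% of all tested genes. Hairpin 3 was below hairpin 1 for 9 members (25.7%) and above it for 3 (8.57%), against 4.7% and 4.75% of all tested genes. The last counts depended on the libraries: the 9 lower members became 4 without hairpin 1 library 1 or 2 or hairpin 3 library 2 or 3, 5 without hairpin 1 library 3, 12 without control library 1 and 13 without hairpin 3 library 1, and without both first libraries the counts were 16 lower and 7 higher. Over all tested genes the share called lower moved too, from 1.06% without hairpin 3 library 2 to 21.3% without hairpin 3 library 1, and it was 29.1% without both first libraries.

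LDHA was the clearest example among the enzymes, lower with hairpin 2 than with hairpin 1 by 1.05 ± 0.06 (log2, adjusted p = 6.5e-08) and higher with hairpin 3 than with hairpin 2 by 0.89 ± 0.06 (2.0e-07). SLC16A1 differed by -1.20 ± 0.14 and 0.95 ± 0.14 in the same comparisons, and ALDOC by -1.16 ± 0.15 and 0.63 ± 0.15. CA9 had the most negative value between hairpins 2 and 1, at -1.54 ± 0.27. HK1 was lower with hairpin 2 than with hairpin 1 by 0.84 ± 0.05 and than with hairpin 3 by 0.55 ± 0.05. The 3 members higher with hairpin 2 than with hairpin 1 were PFKFB2 (0.91 ± 0.19), EGLN1 (0.36 ± 0.10) and ADM (1.02 ± 0.09). PDK1 was lower with hairpin 3 than with hairpin 1 by 1.06 ± 0.18 (adjusted p = 0.0063), and ADM and NDRG1 were higher, by 0.68 ± 0.09 and 0.48 ± 0.06, the latter not passing on the TPM scale (0.26, 0.0539). LDHB passed narrowly in that comparison, at 0.35 ± 0.10 (adjusted p = 0.0448). That call of LDHB was lost in 9 of the 12 fits that leave out 1 library (0.28 to 0.38), without the filter, with only the 6 libraries, with the length offset (0.15, 0.0585) and on the TPM scale (0.12, 0.0761). Between hairpins 2 and 1 LDHB differed by -0.02 ± 0.10 (0.865) and its libraries overlapped. EGLN3 did not pass in any of these 3 comparisons, with differences of -0.20 ± 0.17, 0.15 ± 0.16 and 0.34 ± 0.17, and without both first libraries its difference between hairpins 3 and 2 was 0.48 (0.0204).

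As a sum, markers of epithelial cells were lower than the control in each hairpin line, and lowest with hairpin 2. Their summed level was 1622 to 1734 TPM with hairpin 2, against 3372 to 3762 TPM in the control, 3202 to 3336 TPM in the hairpin 1 line and 2836 to 3160 TPM in the hairpin 3 line. Of the 7 markers, 6 fell with hairpin 2 (85.7%, against 37.8% of all tested genes), KRT8 by 2.07 and KRT18 by 1.82 on the log2 scale. With hairpins 1 and 3, 3 fell (42.9%, against 31.5% and 24%) and 1 rose (14.3%, against 31.5% and 23.6%). Log2 fold changes of the 7 ran from -1.23 to 0.92 with hairpin 1, where 1 was positive. With hairpin 3 they ran from -0.84 to 0.74, and 3 were positive. The part of these markers in the lower level of glycolytic genes was not tested.

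**Figure D4:**
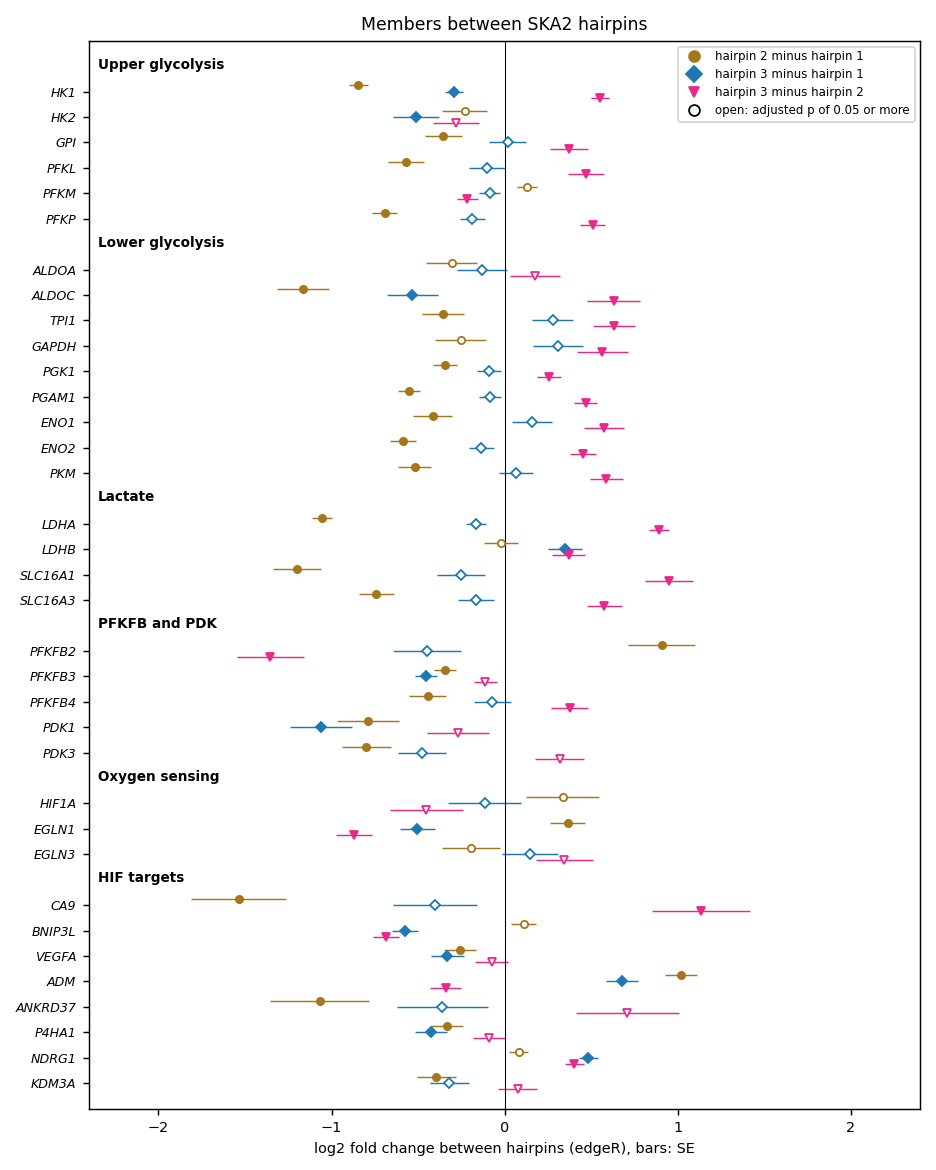
Log2 fold change of the 35 tested members between SKA2 hairpin lines (x axis), grouped by role, with bars of 1 SE; filled symbols passed the adjusted p of 0.05. For lower glycolysis and the lactate genes, hairpin 2 minus hairpin 1 lies left of 0 (LDHB at -0.02) and hairpin 3 minus hairpin 2 lies right of 0, with the length offset turning LDHB to 0.13 in the first and ALDOA to -0.16 in the second, and the TPM scale turning PGK1 to -0.02 in the second.

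Other genes of the same pathways were read from 2 lists. The first held 46 further genes of glycolysis, gluconeogenesis, glycogen and pyruvate entry, of which 33 were tested. With hairpin 1, 7 rose (21.2%) and 12 fell (36.4%), against 31.5% and 31.5% of all tested genes. With hairpin 2, 9 rose (27.3%) and 18 fell (54.5%), against 36.6% and 37.8%, and with hairpin 3, 9 rose (27.3%) and 7 fell (21.2%), against 23.6% and 24%. Their medians were -0.03, -0.26 and -0.03. PCK2, the mitochondrial enzyme that makes phosphoenolpyruvate, fell from 126, 143 and 147 CPM in the control to 7.31 to 8.66 CPM in the hairpin 2 line, with log2 fold changes of -2.75 ± 0.10, -4.15 ± 0.11 and -2.51 ± 0.10. PYGB, a glycogen phosphorylase, fell by 0.99, 1.49 and 0.86. PYGL, the liver form, fell by 1.26 with hairpin 2 and by 0.18 with hairpin 1, a call lost in 5 fits that leave out 1 library, and its hairpin 3 value of -0.17 passed with pairing by number (adjusted p = 0.00236). HKDC1, a hexokinase-like protein, was at 5.29 to 6.02 CPM in the control and fell by 2.90, 1.62 and 3.78.

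The second list held 69 further genes of the hypoxia response, of which 62 were in the table and 54 were tested. With hairpin 1, 18 rose (33.3%) and 16 fell (29.6%), near the 31.5% and 31.5% of all tested genes. With hairpin 2, 26 rose (48.1%) and 20 fell (37%), against 36.6% and 37.8%, and with hairpin 3, 13 rose (24.1%) and 17 fell (31.5%), against 23.6% and 24%. The medians were 0.03, 0.11 and 0.02. DDIT4, an inhibitor of mTORC1 induced by hypoxia, fell from 208, 231 and 241 CPM in the control to between 13.5 and 28.0 CPM in the 9 knockdown libraries, with log2 fold changes of -3.05 ± 0.13, -3.53 ± 0.14 and -3.68 ± 0.14. NT5E, the ectonucleotidase that makes adenosine, fell by 0.61, 2.09 and 0.43, of which the hairpin 1 and 3 calls were lost on the TPM scale (-0.22 and -0.25). STC1, a secreted glycoprotein, fell by 0.82 and 1.48 with hairpins 1 and 2, and its hairpin 3 value of -0.19 passed with pairing by number (adjusted p = 0.000103). PNRC1, a nuclear receptor coactivator, rose by 0.76, 1.89 and 1.12. The glucose transporter SLC2A3 rose by 1.19, 3.92 and 1.64, while SLC2A1 was at 0.10, -0.20 and -0.03. The hairpin 2 value of SLC2A1 was called, but not without control library 2 (-0.19) or 3 (-0.17), without hairpin 2 library 2 (-0.20) or 3 (-0.18) or with only the 6 libraries (-0.21), and on the TPM scale it was called higher (0.23, adjusted p = 0.00942).

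Transcript length moved with the changes of the members. The lengths, as implied by the deposited counts and FPKM, ran from 511 to 9050 bp with a median of 2557 bp, where the median of all tested genes was 2872 bp. Over the 35 tested members, which share libraries and scaling, Spearman's rho between length and log2 fold change was 0.35, 0.44 and 0.15 against the control with hairpins 1, 2 and 3, and it was 0.54, 0.47 and 0.32 over all tested genes. GAPDH, ENO1, TPI1 and LDHB have short transcripts and were lower with hairpins 1 and 2, and PDK3, PFKFB2 and PDK1 have long ones. Other members went against the trend. The short ALDOC (1348 bp, 1.00) and CA9 (1271 bp, 0.93) rose with hairpin 1, and ADM (1217 bp, 0.70) rose with hairpin 2. The long PGK1 (4537 bp, -0.41) fell with hairpin 2. Removing each library's trend over length left 16 members higher (45.7%) and 13 lower (37.1%) with hairpin 1, against 29.3% and 30.9% of all tested genes. It left 11 (31.4%) and 19 (54.3%) with hairpin 2, against 36.4% and 37.2%, and 11 (31.4%) and 14 (40%) with hairpin 3, against 27.2% and 28.1%. HK1, PFKP, EGLN3, VEGFA, NDRG1 and P4HA1 kept their direction and call with each hairpin, with VEGFA at -1.22, -1.46 and -1.55. So did GPI, PFKL, GAPDH, ENO1, PKM, LDHA, SLC16A1, PFKFB3 and KDM3A, with GAPDH at -0.40, -0.50 and -0.31.

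**Figure D5:**
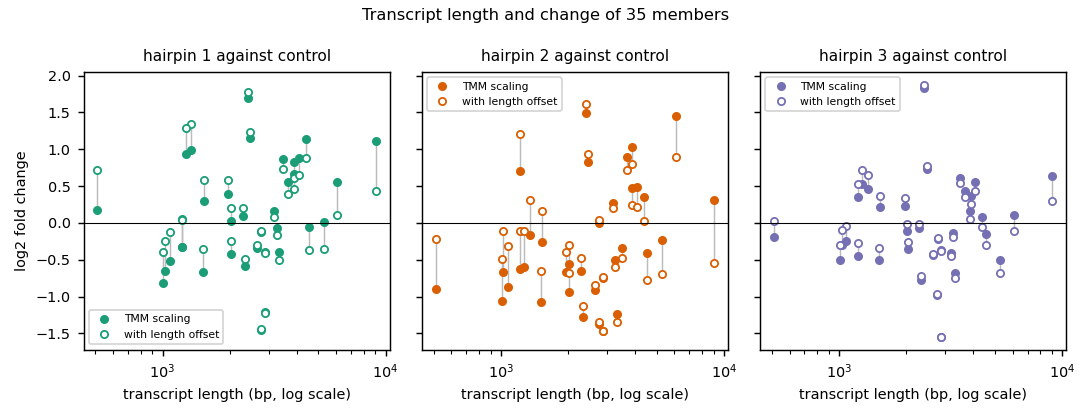
Log2 fold change against the control (y axis) by transcript length in bp (log x axis) for the 35 tested members, with TMM scaling (filled) and with the length offset (open), joined for each gene, 1 panel for each hairpin. With hairpins 1 and 2 most short transcripts sit higher with the offset and most long ones sit lower, and the points of VEGFA and NDRG1 near -1.5 hardly move.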

How the data were processed

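Poly(A) RNA was sequenced with random priming on the BGISEQ-500 platform, per the labels' protocols, which describe no strand-marking step. The build GRCh38.p13 and the tools RSEM, Bowtie2, HISAT and DESeq2 are named in the submitters' processing notes. Neither roles nor versions are given in the sources used here. Per library and gene, the authors deposited expected counts, FPKM scaled to transcript length and reads, and TPM scaled to the same total in each library, per the file headers. Another 15 columns, averages over groups, stayed out of use.

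Expected counts were rounded and tested with edgeR (4.0.16, R 4.3.3): expression filter on the 4 groups (12868 of 17303 genes kept), TMM, and a quasi-likelihood fit with 1 level per line to all 12 libraries (8 residual degrees of freedom, common biological coefficient of variation 0.111). Tests were two-sided with Benjamini-Hochberg adjustment over all tested genes. SE is the absolute log2 fold change divided by the square root of the F statistic. Alternatives were DESeq2 (1.42.0), its size factors in edgeR, no filter, only the 6 libraries compared, limma (3.58.1) on log2(TPM + 1) with a pseudocount of 1, the replicate number as a block, a length offset (each library's trend of log level over transcript length removed), both together, and each library left out. Same-numbered libraries deviated together (r over 0.1) in 3 of 18 pairs, all between the control and hairpin 3 (0.728, 0.17 and 0.6), so that comparison was also fitted with pairs, by their numbers in the sample titles. Libraries with different numbers also did so in 7 of 36 pairs, such as control library 3 with hairpin 3 library 2 (0.391). Whether libraries of the same number were handled together is not in the labels.

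Members, lists and tests were chosen with earlier results of these data known. In each role, up to 3 members with the largest called change against the control and at least 1 CPM on average had their library values printed. From each of the 2 pathway lists, up to 4 genes with the smallest adjusted p were named.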

Additional observations from a re-analysis of the deposited data

How the results depend on the processing

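Depth did not limit most members: 33 of the 35 tested were above 1 CPM in every library, and CA9 and ANKRD37 were the lowest. With DESeq2, with its size factors and without the filter, counts of members called stayed within 1.5 times the main counts.

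Fits to only the 6 libraries compared gave 6 higher (17.1%) and 5 lower (14.3%) for hairpin 3 against the control, against 12.2% and 14.4% of all tested genes. They gave 6 higher (17.1%, against 37.3%) for hairpin 2 against hairpin 1, and 5 lower (14.3%, against 1.47%) for hairpin 3 against hairpin 1. The cause was not tested. With log2(TPM + 1), which shifts the median gene, 22 members were higher (62.9%) and 7 lower (20%) with hairpin 1 against the control, against 50.2% and 13.5% of all tested genes. With hairpin 2, 12 were lower (34.3%, against 20.9%). For hairpin 3 against hairpin 1, 1 was higher (2.86%) and 18 lower (51.4%), against 1.88% and 10.4%. For hairpin 3 against hairpin 2, 8 were lower (22.9%, against 44.1%). On that scale the direction reversed with hairpin 1 against the control for GPI (0.20), PFKL (0.051), PFKM (0.25), PGK1 (0.32), PFKFB4 (0.25), ADM (0.053) and PYGL (0.19), with hairpin 2 for ALDOC (0.28), PGK1 (0.037), PGAM1 (0.18), SLC16A1 (0.11) and SLC2A1 (0.23), for hairpin 3 against hairpin 1 for GPI (-0.28) and PKM (-0.16), and for hairpin 3 against hairpin 2 for PGK1 (-0.025).

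The length offset reversed HK2 (-0.36) and ADM (0.034) with hairpin 1, ALDOC (0.32), PGAM1 (0.16) and PDK3 (-0.54) with hairpin 2, LDHB for hairpin 2 against hairpin 1 (0.13) and ALDOA for hairpin 3 against hairpin 2 (-0.16). It gave 5 members higher (14.3%, against 33.7% of all tested genes) for hairpin 2 against hairpin 1. For hairpin 3 against hairpin 1 it gave 15 lower (42.9%, against 6.75%). With the replicate block and the length offset together these counts were 5 (14.3%, against 33.8%) and 16 (45.7%, against 7.27%). The reversed values were then -0.36, 0.034, 0.32, 0.16, -0.54, 0.13 and -0.16. The replicate block alone, in the fit of 12 libraries, left 104 of 105 member calls against the control as they were (PDK1 with hairpin 2 passed, at 0.37) and 101 of 105 between hairpins. Paired by number, the 6 libraries of hairpin 3 and the control gave 13 higher (37.1%) and 17 lower members (48.6%), against 35% and 34.7% of all tested genes.

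Leaving out each library in turn gave 4 to 13 lower and 2 to 5 higher members for hairpin 3 against hairpin 1. Over all tested genes the shares ran from 1.06% to 21.3% lower and from 0.762% to 19.6% higher. For hairpin 3 against hairpin 2, 5 to 9 members were lower, against 28.2% to 35.1% of all tested genes. Leaving out both first libraries of control and hairpin 3 was an alternative chosen after seeing the data, like the 6-library pairing. There 5 members were higher (14.3%, against 36.3% of all tested genes) for hairpin 2 against hairpin 1. For hairpin 3 against hairpin 1, 7 were higher (20%) and 16 lower (45.7%), against 28.4% and 29.1%. For hairpin 3 against hairpin 2, 11 were lower (31.4%, against 37.9%).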
